A study of Mus musculus with 6 samples.

Results

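Calcineurin, NFAT and calcium channel genes form the calcium branch of the KEGG pathway for cellular senescence, and 8 of them were examined here, out of 88 genes in the deposited senescence table. They were chosen by symbol: Ppp3cb and Ppp3cc, which encode catalytic subunits of calcineurin, the transcription factor genes Nfatc1 and Nfatc2, the calmodulin-like gene Calml3, the channel genes Cacna1d and Trpm7, and the mitochondrial carrier gene Slc25a31. Messenger RNA from mouse brain was sequenced in 6 samples, 3 labelled young and 3 labelled aged, with brain as tissue and neuroblast, an immature migrating neuron, as cell type. The labels of both groups alike mention tamoxifen injection of mice and a measurement of tdTomato+ NK cells in bone marrow, spleen, blood and brain, without tying them to the RNA that was sequenced. The labels do not name strain, genotype or age in months, nor whether each sample came from its own animal, so that p-values reflect the spread among samples only, and this may be technical. The label neuroblast could not be checked, because 0 of 29 marker genes of 8 brain and immune cell types are among the 88 genes.

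Calcineurin is a phosphatase that is switched on by calcium and calmodulin. It removes phosphates from NFAT proteins, which then enter the nucleus and activate genes, among them cytokine genes in lymphocytes. Calcium enters the cell through voltage-gated channels such as the one formed by Cacna1d and through TRP channels such as Trpm7. In neurons calcineurin is abundant and is known for its part in synaptic plasticity.

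No calcineurin, NFAT or channel gene differed between aged and young brain beyond the spread between samples. The 6 members with a mean signal of at least 1 were tested with limma on log2(value + 1), and 0 of 6 passed a 5% false discovery rate (lowest adjusted p = 0.994), as did 0% of the 66 genes tested. At an unadjusted limma p under 0.05 the counts were 0 of 6 members and 3 of 66 genes (4.55%). The median log2 change of the 6 members was 0.07, against 0.12 for all 66 genes. No gene of the table has a lower mean in the aged samples. Membership of the table thus already excludes that direction, and the sign of a member's mean difference is not a finding. Calml3 and Slc25a31, at a mean of 0.1 and 0.0933, were below the limit and are given as values only.

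The deposited values are the authors' expression signal, whose unit is not named, so levels are compared between samples of one gene and not between genes. Their depth is unknown. The signal summed over the 88 genes lay between 1900 and 2992 in the 6 samples. In 53 of the 66 tested genes (80.3%), aged replicate 1 lay on the other side of the young mean from the mean of aged replicates 2 and 3. All 6 tested members were among these. The same was not counted for aged replicates 2 and 3. Where the group means nearly coincide, an aged sample easily lies opposite the others. For Ppp3cc, aged replicate 2 (12.38) lay above the young mean of 9.21, and the mean of the other aged samples below it. The count therefore does not show that aged replicate 1 stood apart for the members. How far the choice of genes for a higher aged mean raises the count of 53 was not tested. Values are given for each sample, and the limma comparisons of the 6 tested members also without aged replicate 1. In bulk RNA a change in the number of cells of a type and a change in RNA per cell cannot be told apart.

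Among the aged samples, replicate 1 was the highest for the calcineurin subunit gene Ppp3cb and the lowest for Ppp3cc. Ppp3cb (Entrez gene 19056), which encodes the beta isoform of the catalytic subunit, had a signal of 19.35, 13.5 and 11.84 in the young samples, in the order of their replicate numbers, and of 23.42, 14.39 and 11.87 in the aged samples. Replicate 1 was the highest sample of both groups, and the groups overlapped. The aged mean was 16.6 ± 6.07 and the young mean 14.9 ± 3.95 (SD, n = 3 each). On the log2 scale they differed by 0.12 (SE 0.323, 95% interval −0.64 to 0.88, limma adjusted p = 0.994). Without aged replicate 1 the mean of the other aged samples was 13.1, below the young mean, and the log2 change was −0.15 (SE 0.224, limma adjusted p = 0.661).

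Ppp3cc (19057), which encodes the gamma isoform, was listed at 9.1, 9.31 and 9.21 in the young and at 6.21, 12.38 and 9.3 in the aged samples. The young samples were almost level, with a coefficient of variation of 1.14%, the lowest of the 66 tested genes in that group, where the median was 18.2%. The aged samples lay around them, with replicate 1 under each young value, replicate 2 over each of them and replicate 3 inside their range. Their coefficient of variation was 33.2%, near the median of 38.3% over the 66 genes. The aged and young means were 9.30 ± 3.09 and 9.21 ± 0.105 (SD, n = 3 each). The log2 change was −0.03 (SE 0.285, 95% interval −0.70 to 0.64, limma adjusted p = 0.994), negative although the aged mean was the higher one, since the log scale gives less weight to the highest sample. Without aged replicate 1 it was 0.20 (SE 0.182, limma adjusted p = 0.532).

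The signal of Ppp3cc divided by that of Ppp3cb within each sample was 0.470, 0.690 and 0.778 in the young samples and 0.265, 0.860 and 0.783 in the aged samples, again by replicate number. The 2 lowest ratios were those of replicate 1 in each group, and the young and aged ranges overlapped. The size of the ratio itself depends on how the authors scaled for length and says nothing of which isoform was more abundant.

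**Figure D1:**
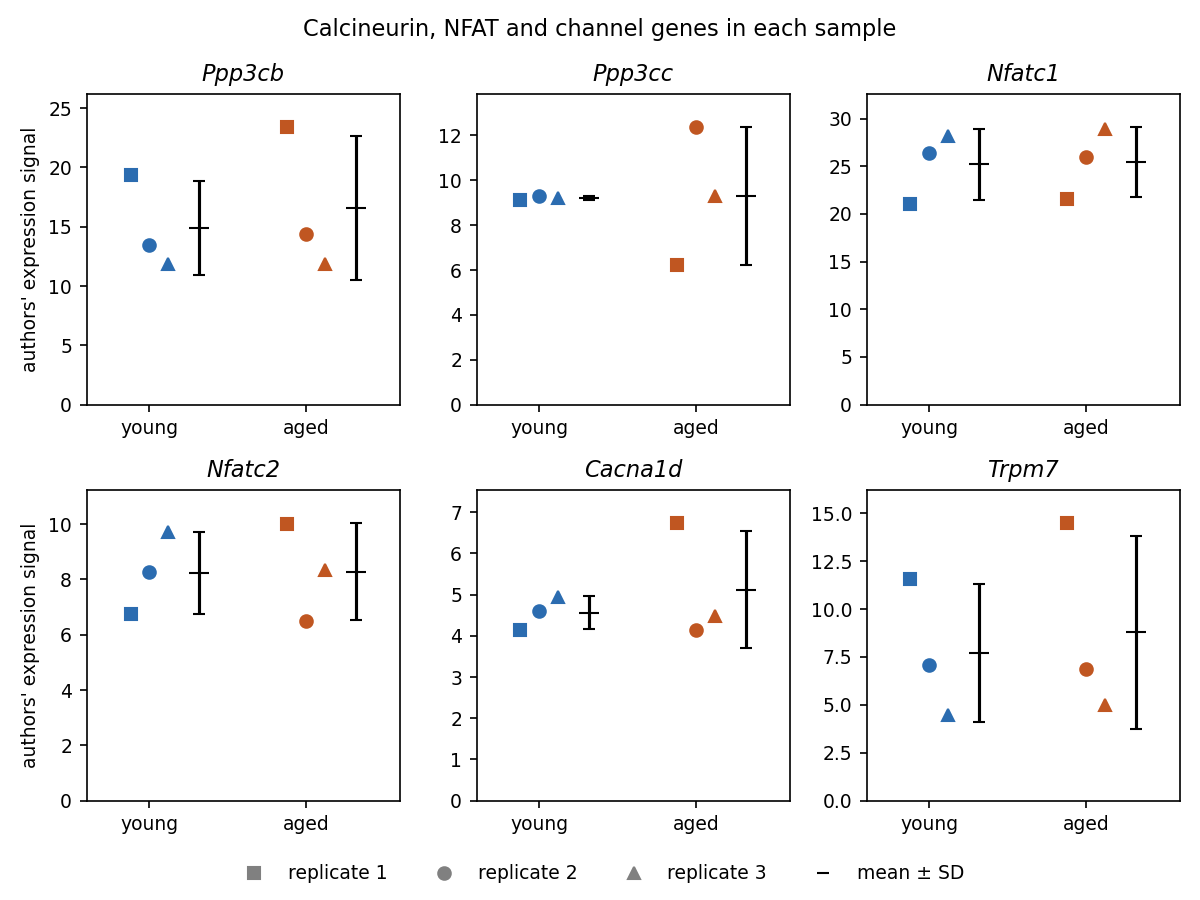
Each panel plots the authors' expression signal of 1 gene (y axis from 0, unit not named) for the 3 young and 3 aged samples, with the marker shape giving the replicate number and the bar the mean ± SD of the group. Aged replicate 1 is the highest aged sample for Ppp3cb, Nfatc2, Cacna1d and Trpm7 and the lowest for Ppp3cc and Nfatc1, and the young values of Ppp3cc lie within 9.1 to 9.31.

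NFAT genes were nearly level between the groups. Nfatc1 (18018), an NFAT factor known from T cells, heart valves and osteoclasts, was listed at 21.04, 26.41 and 28.15 in the young and at 21.56, 25.94 and 28.87 in the aged samples. Replicate 1 was the lowest sample of both groups, and the ranges of the groups nearly coincided. The aged and young means were 25.5 ± 3.68 and 25.2 ± 3.71 (SD, n = 3 each), with a log2 change of 0.01 (SE 0.236, 95% interval −0.54 to 0.57, limma adjusted p = 0.994). Its aged coefficient of variation of 14.5% was the eighth lowest of the 66 genes.

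Nfatc2 (18019), the NFAT factor first known from T cells, was listed at 6.74, 8.26 and 9.72 in the young and at 10.01, 6.49 and 8.36 in the aged samples. Replicate 1 was the lowest young and the highest aged sample, and aged replicate 2 was the lowest of all 6. The aged and young means were 8.29 ± 1.76 and 8.24 ± 1.49 (SD, n = 3 each), with a log2 change of 0.0022 (SE 0.264, 95% interval −0.62 to 0.62, limma adjusted p = 0.994). With aged replicate 1 left out, the log2 change was 0.12 for Nfatc1 (SE 0.158, limma adjusted p = 0.623) and −0.13 for Nfatc2 (SE 0.216, limma adjusted p = 0.691). The ratio of Nfatc1 to Nfatc2 signal was 3.12, 3.20 and 2.90 in the young and 2.15, 4.00 and 3.45 in the aged samples. The young ratios lay between the lowest and the middle aged ones.

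Both channel genes were highest in aged replicate 1. Cacna1d (12289), which encodes the pore-forming subunit of an L-type voltage-gated calcium channel, was listed at 4.15, 4.61 and 4.93 in the young and at 6.74, 4.15 and 4.47 in the aged samples. Aged replicate 1 was the highest of all 6, while the other aged samples lay within the young range. The aged and young means were 5.12 ± 1.41 and 4.56 ± 0.392 (SD, n = 3 each), with a log2 change of 0.12 (SE 0.258, 95% interval −0.49 to 0.72, limma adjusted p = 0.994). When aged replicate 1 was dropped the log2 change was −0.07 (SE 0.189, limma adjusted p = 0.812).

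Trpm7 (58800), a channel for magnesium and calcium ions joined to a protein kinase, was listed at 11.57, 7.06 and 4.45 in the young and at 14.5, 6.88 and 5 in the aged samples. The spread within each group was wide, with a 3.26-fold range over the 6 samples. Replicate 1 was the highest sample of both groups, as for Ppp3cb. Its coefficient of variation was 46.8% in the young samples, the fifth highest of the 66 genes, and 57.2% in the aged samples. The aged and young means were 8.79 ± 5.03 and 7.69 ± 3.60 (SD, n = 3 each), with a log2 change of 0.14 (SE 0.453, 95% interval −0.93 to 1.20, limma adjusted p = 0.994). It was −0.25 without aged replicate 1 (SE 0.350, limma adjusted p = 0.646). The interval of Trpm7 is the widest of the 6 tested members and includes a 2-fold difference in the higher direction.

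Ppp3cb and Trpm7 were the members with replicate 1 highest in both groups, a pattern held by 18 of the 66 genes, and their promoters are printed to show the start regions of these genes. The sequences are the 250 bases before each start site in RefSeq's GRCm38.p6 annotation, written 5′ to 3′ on the gene's strand, and capitals mark GGAAA or its complement TTTCC, the core letters that NFAT factors bind. Ppp3cb lies at chr14:20546574-20546823 and Trpm7 at chr2:126876262-126876511, both on the minus strand.
Ppp3cb: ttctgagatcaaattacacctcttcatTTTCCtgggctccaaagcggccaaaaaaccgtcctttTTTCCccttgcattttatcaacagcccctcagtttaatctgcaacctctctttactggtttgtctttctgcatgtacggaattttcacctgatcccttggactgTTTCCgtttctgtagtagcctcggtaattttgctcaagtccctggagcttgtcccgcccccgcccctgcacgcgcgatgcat
Trpm7: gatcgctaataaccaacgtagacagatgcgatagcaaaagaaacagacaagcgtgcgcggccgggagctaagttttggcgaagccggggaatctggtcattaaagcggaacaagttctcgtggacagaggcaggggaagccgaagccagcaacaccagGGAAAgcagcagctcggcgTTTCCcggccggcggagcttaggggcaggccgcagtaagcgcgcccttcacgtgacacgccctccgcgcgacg
The Ppp3cb window holds 3 matches to GGAAA or TTTCC and the Trpm7 window 2, and 55.6% of 32851 RefSeq promoter windows of the same length hold at least 1. GGGCGG or its complement CCGCCC, the letters of a GC box, occurs in 2 places in the Ppp3cb window and in 0 places in the Trpm7 window, against 32.7% of windows with at least 1. The Trpm7 window has 26 CG dinucleotides and the Ppp3cb window 10, against a median of 6 over all windows. A match describes letters only, and no binding was measured.

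The transcripts of these 2 genes are also the poorest in G and C. Among the 62 tested genes with a coding transcript in GENCODE release M21, the longest transcript of Ppp3cb had the lowest GC content, 39.8%, and that of Trpm7 the next lowest, 40.1%, where the median was 51.6%. The other members lay at 48.6% for Cacna1d, 49.8% for Ppp3cc, 53.7% for Nfatc1 and 55.3% for Nfatc2. Replicate 1 minus the mean of replicates 2 and 3, on the log2(value + 1) scale, was 0.58 for Ppp3cb and 0.92 for Trpm7 in the young group and 0.80 and 1.17 in the aged group. For Nfatc1 it was −0.36 in the young and −0.33 in the aged group. Ppp3cb and Trpm7 thus lay high in replicate 1 of both groups and Nfatc1 lay low. Ppp3cc, also among the genes with the lower GC content, was at −0.0227 in the young and −0.70 in the aged group. Over the 31 genes with the lower GC content the median of this difference was 0.38 in the young and 0.45 in the aged samples, and over the 31 with the higher GC content it was −0.14 and −0.93. Nfatc2 and Cacna1d changed sign between the groups, at −0.36 and −0.16 in the young against 0.40 and 0.54 in the aged samples. Cacna1d, Trpm7 and Nfatc2 have the second, seventh and eighth longest transcripts of the 62, at 8688, 7107 and 6828 bases, and Ppp3cc has one of 1970 bases. The part of GC content or length in the members' values was not tested.

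**Figure D2:**
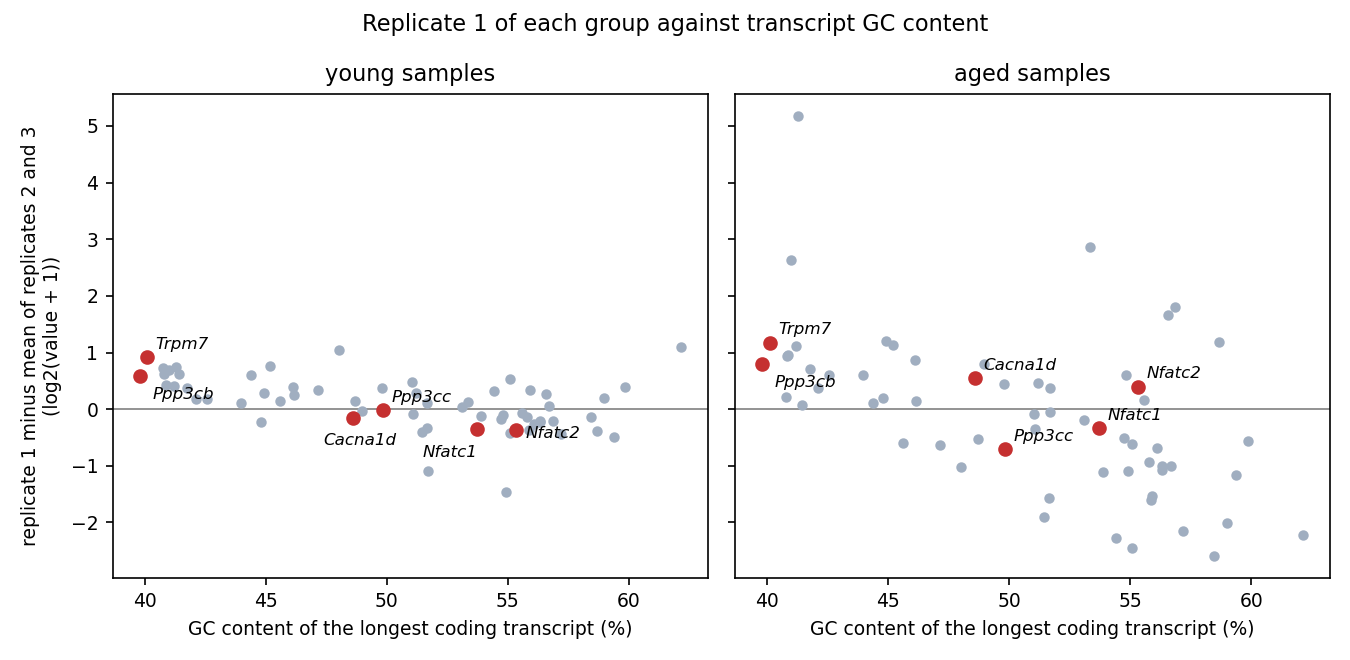
Each point is 1 of 62 genes, with the GC content of its longest coding transcript in percent on the x axis and replicate 1 minus the mean of replicates 2 and 3 on the log2(value + 1) scale on the y axis, for the young samples on the left and the aged samples on the right. The 6 tested members are in red, and Ppp3cb and Trpm7, at 39.8% and 40.1%, lie at the left edge and above 0 in both panels.

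The calmodulin-like and mitochondrial members were near the bottom of the scale. Calml3 (70405), a calmodulin-like calcium sensor best known from epithelia, was listed at 0, 0.09 and 0.17 in the young and at 0, 0.13 and 0.21 in the aged samples. It was listed at 0 in replicate 1 of both groups. Slc25a31 (73333), an ADP/ATP carrier of the inner mitochondrial membrane best known from male germ cells, was listed at 0.06, 0.12 and 0.06 in the young and at 0.03, 0.15 and 0.14 in the aged samples. The groups overlapped for both genes, and with 2 decimals deposited, values this low carry 1 or 2 digits. With no filter on low values, limma gave log2 changes of 0.03 for Calml3 (SE 0.0925) and 0.03 for Slc25a31 (SE 0.0642), each with an adjusted p of 0.994 over 88 genes.

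In none of the 6 tested members did aged replicates 2 and 3 both exceed each young sample, whereas 29 of the 66 genes (43.9%) did. Aged replicate 1 exceeded each young sample for Ppp3cb, Nfatc2, Cacna1d and Trpm7 (4 of 6 members, against 43.9% of the 66 genes) and was lower than each for Ppp3cc (1 of 6, against 39.4%). For Ppp3cb, Nfatc2, Cacna1d and Trpm7 the mean of aged replicates 2 and 3 was 0.881, 0.901, 0.944 and 0.772 times the young mean, so that the higher aged mean of these genes rested on aged replicate 1. For Ppp3cc and Nfatc1 the same ratio was 1.18 and 1.09. No member had all aged samples above all young samples, as 4 of the 66 genes did (6.06%).

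With 5 samples, aged replicate 1 left out, 0 of 6 members passed a 5% false discovery rate with limma, against 15 of the 66 genes (22.7%). At an unadjusted p under 0.05 the counts were then 0 of 6 and 22 of 66 (33.3%). The median log2 change of the members was −0.10 and that of all 66 genes 0.20. The other replicate 1 was left out as well, a choice made after the values were seen, because Ppp3cb and Trpm7 were highest in it among the young samples. With 2 aged and 2 young samples left, limma again called 0 of 6 members, against 24 of 66 genes (36.4%), and the lowest adjusted p among the members was 0.371, for Nfatc2 (log2 change −0.25, SE 0.201, lower than both young samples in 1 of 2 aged samples). Ppp3cb and Trpm7 then had log2 changes of 0.04 (SE 0.171, 95% interval −0.31 to 0.40) and 0.05 (SE 0.233, 95% interval −0.43 to 0.54). This fit left out the highest sample of both groups for these 2 genes. Most of its 22.1 degrees of freedom came from pooling the variance over genes. The narrower intervals are therefore not evidence that the groups were level.

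**Figure D3:**
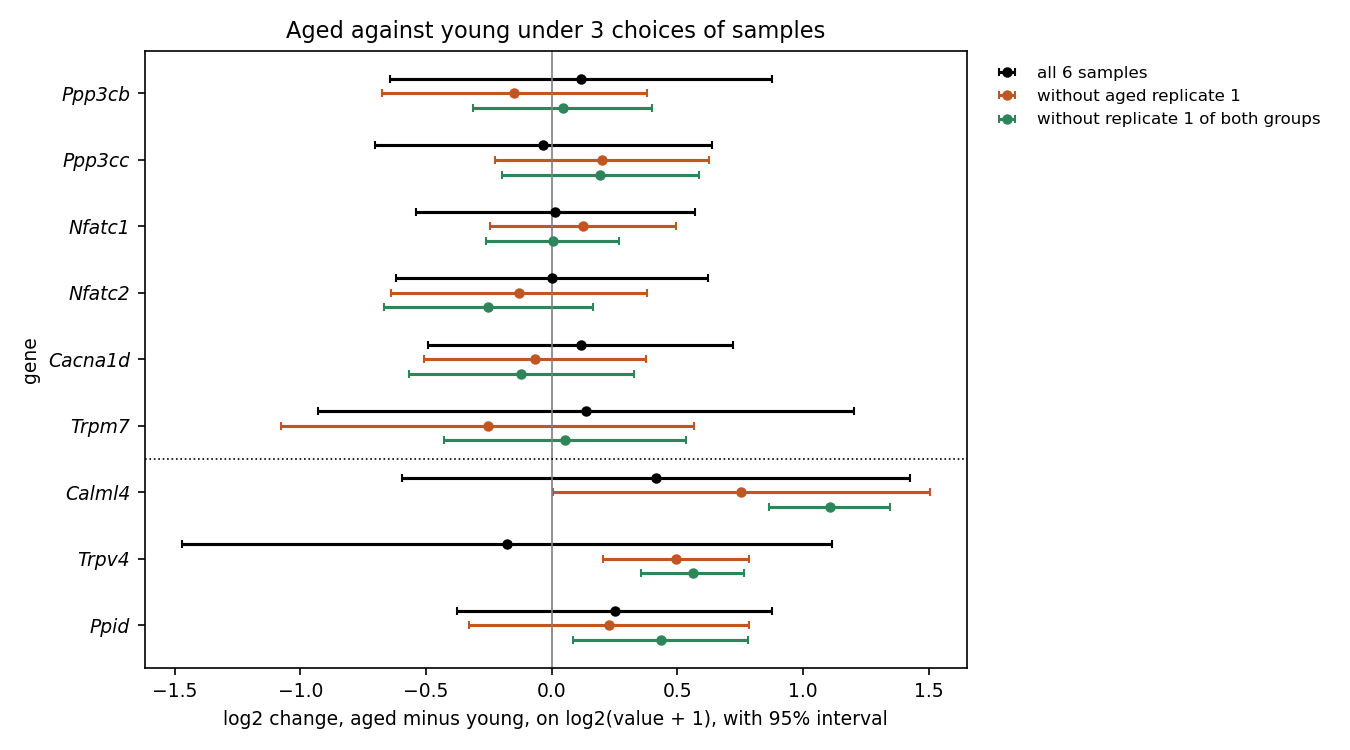
Points give the limma log2 change of aged minus young on the log2(value + 1) scale (x axis) with its 95% interval for the 6 tested members and, under the dotted line, 3 other genes of the calcium pathway (y axis), with all 6 samples, without aged replicate 1 and without replicate 1 of both groups. Each interval of the 6 members includes 0 under the 3 choices of samples, while Trpv4 goes from −0.18 to 0.49 when aged replicate 1 is left out.

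The authors' deposited table calls some members that limma does not. In the authors' deposited table the q-value was 2.98e-05 for Trpm7, 0.000638 for Ppp3cb and 0.000891 for Cacna1d, at log2 ratios of aged to young of 0.17, 0.15 and 0.16. These 3 of 8 members had a q-value under 0.05 in the authors' deposited table, against 54 of the 85 genes with a value (63.5%). The q-values of Nfatc1, Nfatc2, Ppp3cc, Calml3 and Slc25a31 in the authors' deposited table were 0.287, 0.605, 0.837, 0.647 and 0.550. By the log2 ratio in the authors' deposited table, the 6 tested members stood at places 55 to 84 of 85 from the largest. The sources used here do not name the test behind these q-values. For the 3 genes with a low q-value, aged replicate 1 was the highest of all 6 samples, and the mean of the other aged samples was below the young mean. The same held for Nfatc2, whose q-value was 0.605, so this trait does not set the 3 genes apart.

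Other genes of the calcium pathway were taken from a list of 53 symbols arranged by role, of which 12 are in the table, the 8 members and 4 more. Of the 9 with a mean of at least 1, 0 passed in either direction with limma over all 6 samples. Calml4 (75600), a calmodulin-like gene, was listed at 67.52, 35.49 and 28.93 in the young and at 34.01, 74.88 and 65.67 in the aged samples, a log2 difference of 0.41 (SE 0.430, limma adjusted p = 0.994). Trpv4 (63873), a calcium-permeable TRP channel of the plasma membrane, was listed at 60.01, 49.91 and 54.49 in the young and at 18.4, 74.74 and 80.15 in the aged samples, a log2 difference of −0.18 (SE 0.550, limma adjusted p = 0.994). Both aged replicates 2 and 3 exceeded each young sample for Trpv4, and for Calml4 aged replicate 2 did.

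Ppid (67738), which encodes a cyclophilin, a prolyl isomerase, was listed at 19.81, 12.34 and 12.82 in the young and at 18.2, 20.1 and 14.96 in the aged samples, a log2 difference of 0.25 (SE 0.267, limma adjusted p = 0.994). The cytokine gene Il6 (16193), which NFAT factors can activate, was listed at 0.34, 0.27 and 0.22 in the young and at 1.63, 0.06 and 0.21 in the aged samples. Its mean of 0.455 was below the limit for the test, and aged replicate 1 was its highest sample while the other aged samples were its lowest. Leaving out aged replicate 1, Trpv4 was the 1 gene of the 9 that passed (log2 change 0.49, SE 0.124, limma adjusted p = 0.0315, 5.65e-05 to 0.999 over its alternatives, higher in 2 of 2 aged samples). Calml4 was then at 0.76 (SE 0.319, limma adjusted p = 0.146) and Ppid at 0.23 (SE 0.237, limma adjusted p = 0.546). Without replicate 1 of both groups 3 passed, Calml4 (log2 change 1.11, SE 0.116, limma adjusted p = 6.51e-08, up to 0.999 over its alternatives), Trpv4 (0.56, SE 0.0987, adjusted p = 5.65e-05) and Ppid (0.43, SE 0.168, adjusted p = 0.0461, likewise up to 0.999), each higher in 2 of 2 aged samples. That fit was chosen after the values were seen. It left out the highest young and the lowest aged sample of both Calml4 and Trpv4, and the highest young sample of Ppid. The passes in that fit are therefore not evidence of a difference. The fit without aged replicate 1 alone was planned, but it also left out the lowest aged sample of Trpv4. In the authors' deposited table the q-values of Calml4, Trpv4, Ppid and Il6 were 1.72e-20, 1.01e-07, 8.41e-06 and 0.0182, where 54 of 85 genes had one under 0.05.

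**Figure D4:**
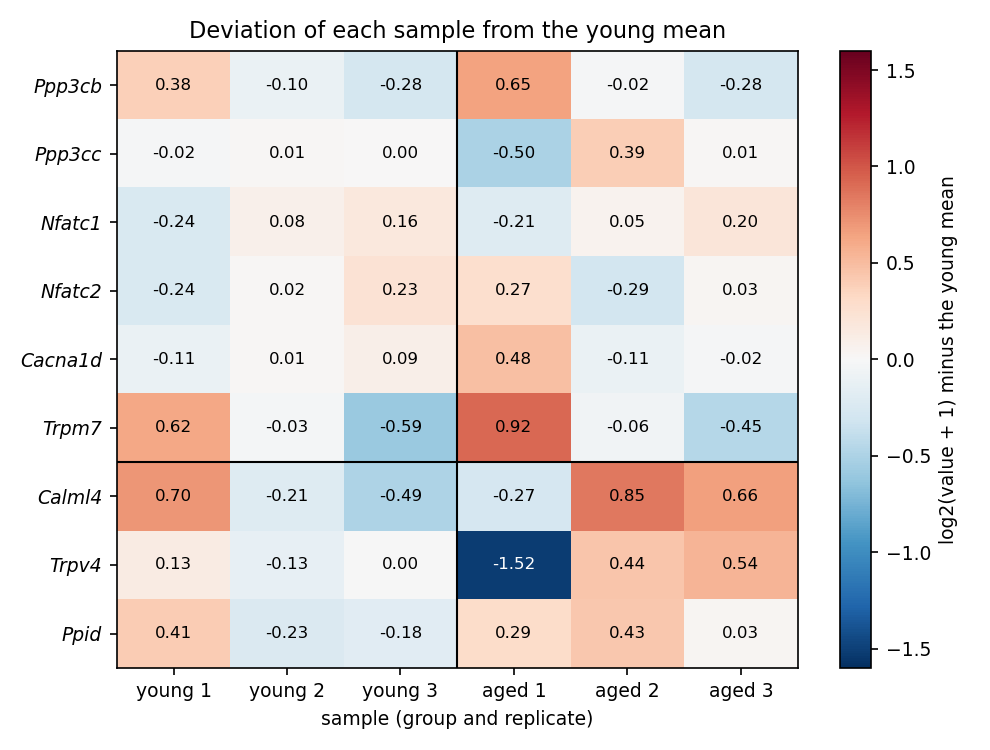
Each cell gives log2(value + 1) of a gene in a sample minus the mean of the 3 young samples, for the 6 tested members above the line and 3 other calcium pathway genes below it (rows) in the 3 young and 3 aged samples (columns), with red for higher and blue for lower. The members' largest deviation is 0.92, for Trpm7 in aged replicate 1, and the largest of all is −1.52, for Trpv4 in the same sample.

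The genes most like each member were found from the root mean square difference between profiles of log2(value + 1) over the 6 samples, each centred on its young mean. For Ppp3cb the closest gene was the checkpoint kinase gene Atr, at 0.0890, against a median of 0.489 over all other tested genes. For Trpm7 they were the DNA repair gene Rad50, at 0.162, and Atr, at 0.171, with a median of 0.644. The closest profile to Cacna1d was that of Zfp36l2, an mRNA decay factor gene, at 0.0569, followed by the kinase gene Atm at 0.122, with a median of 0.431. Kinase genes of the DNA damage checkpoint thus stood among the closest profiles of Ppp3cb, Trpm7 and Cacna1d. The gene closest to Nfatc2 was another member, Cacna1d, at 0.139, and next came the growth regulator gene Tsc1 at 0.159. Nfatc1 was closest to Tsc1 at 0.112 and to E030030I06Rik at 0.123. Ppp3cc was closest to the checkpoint gene Rad9a at 0.0967 and to the phosphatase gene Ppp1cc at 0.137. Flat profiles lie close to each other by this measure, and the samples are shared by all genes.

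KEGG terms in the deposited table link the members beyond senescence. Ppp3cb and Ppp3cc carry the same 21 terms, and Nfatc1 and Nfatc2 share 11 of the 13 terms that each carries. The cGMP-PKG signalling term is carried by 7 of the 8 members, all except Trpm7, and by 13 of the 88 genes. Calcium signalling is carried by Ppp3cb, Ppp3cc, Calml3, Cacna1d and Slc25a31, which are 5 of the 6 genes with that term, and Calml4 is the other. Glutamatergic synapse is carried by Ppp3cb, Ppp3cc and Cacna1d and by no other gene of the 88. Natural killer cell mediated cytotoxicity and T cell receptor signalling are carried by the calcineurin and NFAT members, 4 of the 6 and 4 of the 11 genes with these terms. Trpm7 carries 4 terms and shares Necroptosis with Slc25a31, and these are 2 of the 4 genes with that term. Within these shared terms the members did not follow one pattern, since Ppp3cb was highest and Ppp3cc lowest in aged replicate 1 among the aged samples.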

How the data were processed

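Per the labels' protocols, RNA was extracted with Trizol from ground tissue, mRNA was taken on oligo(dT) beads, and random-primed cDNA was amplified and made into circular single-stranded libraries. The values are an expression signal for each gene in each sample, deposited with no name for the unit, the normalization, the aligner, the counting tool or the genome build. Per the file headers, further columns are the authors' log2 ratio (aged over young), p-value and q-value. Groups came from the sample titles. The 6 sample columns all differed.

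Genes with a mean of at least 1 over the 6 samples (66 of 88) were fitted as log2(value + 1) by lmFit and eBayes with a trend (limma 3.58.1, R 4.3.3), with Benjamini-Hochberg adjustment over all of them. Such log2 changes understate those of low genes. The design had allowed for counts, and the signal was tested as a normalized unit. All members, the other listed calcium pathway genes in the table and the 2 closest profiles of each tested member were named by rule, of which 1 is not reported here. The members and lists were chosen with earlier results of these data known. The longest coding GENCODE M21 transcript, matched by Entrez ID, gave length and GC content for 62 of 66 genes. RefSeq promoters were matched by symbol, and those of Ppp3cb and Trpm7 are printed. Alternatives were a replicate block, array weights, no trend, no filter, a minimum mean of 5, a pseudocount of 0.1, library medians set equal, a 10% false discovery rate and each library left out in turn. Leaving out replicate 1 of both groups was added after seeing the data. The fit was tested on 50 simulated data sets. Their samples were independent and their changes far larger than those of the members. They do not show whether changes as small as the members' would be found. Python 3.11.15 with numpy 2.4.6 and pandas 2.3.3 and matplotlib 3.10.9 were used for the rest.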

Additional observations from a re-analysis of the deposited data

How the results depend on the processing

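No tested calcineurin, NFAT or channel gene passed a 5% false discovery rate with limma under any of the alternatives run, with adjusted p-values from 0.371 to 0.999, but the sign of each fitted log2 change turned under at least 1. With library medians set equal, which lowered each change by about 0.21, 24 of all 66 genes stayed above 0 (median −0.0913) and the 6 members were below 0, at −0.0897 for Ppp3cb, −0.19 for Nfatc1, −0.20 for Nfatc2, −0.0912 for Cacna1d, −0.0710 for Trpm7 and −0.24 for Ppp3cc. No gene of the table has a lower aged mean, and the median was higher in each aged library than in each young one. Equal medians take out this shift, so the signs under this setting are not a finding. With array weights, whose estimation stopped before its tolerance was met, the signs turned for Ppp3cb (−0.0378), Ppp3cc (0.17), Nfatc2 (−0.17), Cacna1d (−0.0799), Trpm7 (−0.11) and Trpv4 (0.52). In that fit limma called 15 of the 66 genes and 2 of the 9 calcium pathway genes. These 2 were Calml4 at 0.92 (limma adjusted p = 0.0206) and Trpv4 (limma adjusted p = 0.0473). With 1 library left out, log2 changes ran from −0.15 (without aged replicate 1) to 0.31 (aged replicate 3) for Ppp3cb, −0.24 (aged replicate 2) to 0.20 (aged replicate 1) for Ppp3cc, −0.11 (young replicate 1) to 0.12 (aged replicate 1) for Nfatc1, −0.13 (aged replicate 1) to 0.15 (aged replicate 2) for Nfatc2, −0.0655 (aged replicate 1) to 0.23 (aged replicate 2) for Cacna1d, −0.25 (aged replicate 1) to 0.44 (young replicate 1) for Trpm7 and −0.54 (aged replicate 3) to 0.49 (aged replicate 1) for Trpv4. Calls ran from 0 to 15 of 66 genes and from 0 to 1 of the 9 pathway genes, with the highest counts without aged replicate 1. Without replicate 1 of both groups, 24 genes were called, among them the 3 pathway genes Calml4 (1.11), Trpv4 (0.56) and Ppid (0.43). The signs then turned for Ppp3cc (0.19), Nfatc2 (−0.25), Cacna1d (−0.12) and Trpv4. The cause of these shifts was not tested.

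The replicate number as a block changed no call, with 0 of 66 genes called. The deviations of same-numbered samples correlated at r = 0.271, 0.0908 and 0.408 for numbers 1 to 3 across 66 genes. Aged replicates 1 and 3 correlated best with the young sample of their own number, and aged replicate 2 with young replicate 3 (0.254). The deviations are centred within groups of 3, which ties these values to each other, so they cannot decide whether the numbers pair samples. The block lowered the SE of Trpm7 from 0.453 to 0.215 and that of Ppp3cb from 0.323 to 0.189, with adjusted p-values of 0.994. Library depth is unknown, and no counting error can be given for Calml3, Slc25a31 or Il6.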
